A study of Mus musculus with 8 samples.

Results

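The cytochrome P450 enzymes Cyp1a1 and Cyp1a2 and the aryl hydrocarbon receptor (AHR) pathway that induces them were examined in the livers of 4 WT mice and 4 mice lacking miR-33 in hepatocytes (HKO). The 6 genes, *Cyp1a1*, *Cyp1a2*, *Ahr*, *Arnt*, *Ahrr* and *Tiparp*, were chosen by gene symbol from the 17810 genes listed. All 8 animals were male littermates, ate a diet lacking choline and rich in fat (CD-HFD) from the age of 8 weeks until 3 months later, were 5 months old at sacrifice and were fasted beforehand. The HKO mice carried floxed *miR-33* alleles and a Cre recombinase transgene driven by the albumin promoter. Other liver cells therefore kept the alleles, and activity of this Cre in cholangiocytes cannot be told from these data. Whether the WT littermates carried floxed alleles was not stated in the labels. One RNA library was made per perfused whole liver.

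The AHR is a ligand-activated transcription factor of the bHLH-PAS family. It waits in the cytoplasm in a complex with HSP90 and, once it has bound a ligand such as dioxin, a plant indole or a tryptophan metabolite, it enters the nucleus and pairs with ARNT. The pair binds DNA with the core letters GCGTG and induces *Cyp1a1* and *Cyp1a2*, as well as *Ahrr* and *Tiparp*, whose products restrain the receptor. CYP1A2 is abundant in untreated hepatocytes around the central vein, where it oxidises caffeine, aromatic amines and estrogens, whereas CYP1A1 is nearly silent in the liver until the receptor is activated.

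*Cyp1a1* and *Cyp1a2* lie head to head on chromosome 9 of GRCm38, and their promoters are printed because only *Cyp1a2* was called different between the genotypes. The deposited coordinates place *Cyp1a2* at 57676937 to 57683655 on the minus strand and *Cyp1a1* at 57687928 to 57703824 on the plus strand, with 4272 bases between them. The RefSeq start sites are 13958 bases apart. The 250 bases before each start site were taken from RefSeq for GRCm38.p6, at chr9:57697363-57697612 (plus strand) for *Cyp1a1* and at chr9:57683656-57683905 (minus strand) for *Cyp1a2*. They are written 5′ to 3′, with the letters GCGTG in capitals:
Cyp1a1 promoter: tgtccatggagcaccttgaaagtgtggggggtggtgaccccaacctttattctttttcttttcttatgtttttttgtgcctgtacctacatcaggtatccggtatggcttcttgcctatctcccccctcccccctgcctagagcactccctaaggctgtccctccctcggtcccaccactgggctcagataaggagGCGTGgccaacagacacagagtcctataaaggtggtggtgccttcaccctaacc
Cyp1a2 promoter: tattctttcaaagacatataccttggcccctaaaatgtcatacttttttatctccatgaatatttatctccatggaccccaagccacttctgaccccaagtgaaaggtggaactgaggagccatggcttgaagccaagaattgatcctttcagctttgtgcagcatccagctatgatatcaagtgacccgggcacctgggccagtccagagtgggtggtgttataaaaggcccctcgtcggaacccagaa

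On both strands, GCGTG occurred 1 time in the *Cyp1a1* window, 54 bases before the start site, and 0 times in the *Cyp1a2* window. The *Ahrr* window held 3 matches, 107, 82 and 27 bases before its start. *Arnt* held 1 match, 29 bases before the start, and *Tiparp* held 1, on the minus strand, 170 bases before it. The longer form TNGCGTG, which contains the first motif, occurred only in *Ahrr*, with 1 match. Of 32851 promoter windows of this length, 28.2% held GCGTG and 4.10% held TNGCGTG, so a match in a single window is common. Promoters were found for 5 of the 6 genes. A match is a description of letters and not evidence of binding. Only these 250 bases were searched, so 0 matches in a window does not show that a gene lacks sites elsewhere.

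The microRNA deleted in HKO hepatocytes is shown because its seed was searched for in the same genes. Its mature form, miR-33-5p, lies at chr15:82198127-82198147 on the plus strand of GRCm38.p6, and its seed, bases 2 to 8, is in capitals:
mmu-miR-33-5p: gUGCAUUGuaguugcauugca

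Among the longest annotated 3′UTRs, 1 for each gene, letters pairing with this seed (CAATGCA, or AATGCAA where the match ends in an A) occurred in 1 of the 6 genes. The 3′UTRs searched were 945 bases long for *Cyp1a1*, 291 for *Cyp1a2*, 2715 for *Ahr*, 1847 for *Arnt* and 1953 for *Tiparp*, and each held 0 matches. The *Ahrr* 3′UTR of 2539 bases held 1 match of 8 bases, which starts at base 625 and is in capitals:
Ahrr site: aattgtaaagaCAATGCAAtcta

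No value for *Mir33* is given (not analysed here), and genotypes rest on the labels. The libraries held 12174339 to 18735785 counts. CPM is the count of a gene relative to the TMM-scaled total of its library over the 12395 genes tested. A gene at 3 counts or fewer was read as not detected in a library, a floor of 0.149 to 0.255 CPM. Such floors cover counting error only. Livers of 1 genotype varied with a biological coefficient of variation of 0.18 over all genes. HKO replicate 3 stood apart, with a chi-square per gene of 114 to 128 against the other HKO livers, whereas other pairs within a genotype gave 19.6 to 43.8. The libraries carry order numbers 55 to 58 for HKO and 59 to 62 for WT, so that genotype and place in this order cannot be told apart. Between the genotypes 638 of the 12395 genes tested (5.15%) had an adjusted p under 0.05 in edgeR's quasi-likelihood test, 212 higher in HKO (1.71%) and 426 lower. With scaling by total counts, which shifted the median of all genes from 0.01 to -0.08 on the log2 scale, the split was 118 higher and 622 lower. DESeq2 called 385 higher and 629 lower, and limma-voom 200 and 403. For counts at an unadjusted p under 0.05, given below, no share over all genes is set beside them.

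Whether hepatocyte loss of miR-33 changed the CYP1A enzymes was addressed first. *Cyp1a2* rose in HKO livers, by 3.45-fold. *Cyp1a1* was low in both genotypes, at 0.579 to 0.986 CPM in WT and 0.540 to 1.96 CPM in HKO, and did not pass the test. Of the 6 genes, 5 had enough counts to be tested, 1 was called higher and 0 were called lower by edgeR. At an unadjusted p under 0.05 the numbers were also 1 and 0, and both DESeq2 and limma-voom called 1 gene. Groups did not overlap for 1 of the 5, against 12.5% of all genes tested.

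*Cyp1a2* measured 143.35, 143.38, 145 and 173 CPM in the 4 WT livers and 303, 519, 562 and 702 CPM in the 4 HKO livers, in order of replicate. No HKO liver fell into the WT range, and the HKO livers spread more widely, from 303 to 702 CPM. The means were 151 ± 14.8 CPM in WT and 522 ± 166 CPM in HKO (SD, n = 4 each), and the counts behind them were 1734 to 2908 and 4487 to 9966. The log2 fold change was 1.79 (SE 0.23, 95% confidence interval 1.27 to 2.31), with an adjusted p of 0.0046 from edgeR. Leaving out any one liver kept it between 1.61 and 1.98, with adjusted p from 1.84e-05 to 0.0229 in edgeR, so the call did not rest on the liver that stood apart. Without HKO replicate 3 it was 1.75. In bulk liver, more RNA per cell and more cells expressing a gene cannot be told apart. Of the 212 genes called higher, 12 had a larger log2 fold change than *Cyp1a2*, and 1 of these, *Egfr* (named after its values were seen), also had a higher mean CPM in HKO livers.

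*Cyp1a1* measured 0.579, 0.698, 0.696 and 0.986 CPM in the WT livers and 0.540, 1.31, 0.958 and 1.96 CPM in the HKO livers. The groups overlapped, since the lowest value of all was in HKO replicate 1 and HKO replicates 2 and 4 were above the highest WT value. These levels came from 7 to 15 counts per WT liver and 8 to 23 per HKO liver. The means were 0.740 ± 0.173 and 1.19 ± 0.60 CPM (SD, n = 4 each). Its log2 difference of 0.65 (SE 0.42) had a 95% confidence interval of -0.26 to 1.55 and an adjusted p of 0.435 in edgeR, and was 0.32 without HKO replicate 4. At this depth a rise of that size in *Cyp1a1* was not detectable, and its interval overlaps that of *Cyp1a2*. Both genes are close paralogs whose reads could be split by the authors' estimation. The deposited counts of each lay within 0.02 of a whole number in every liver. That does not exclude shared reads, since the estimation can assign nearly all of a shared read to the more abundant gene. The effect on the level of *Cyp1a1* was not tested.

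**Figure D1:**
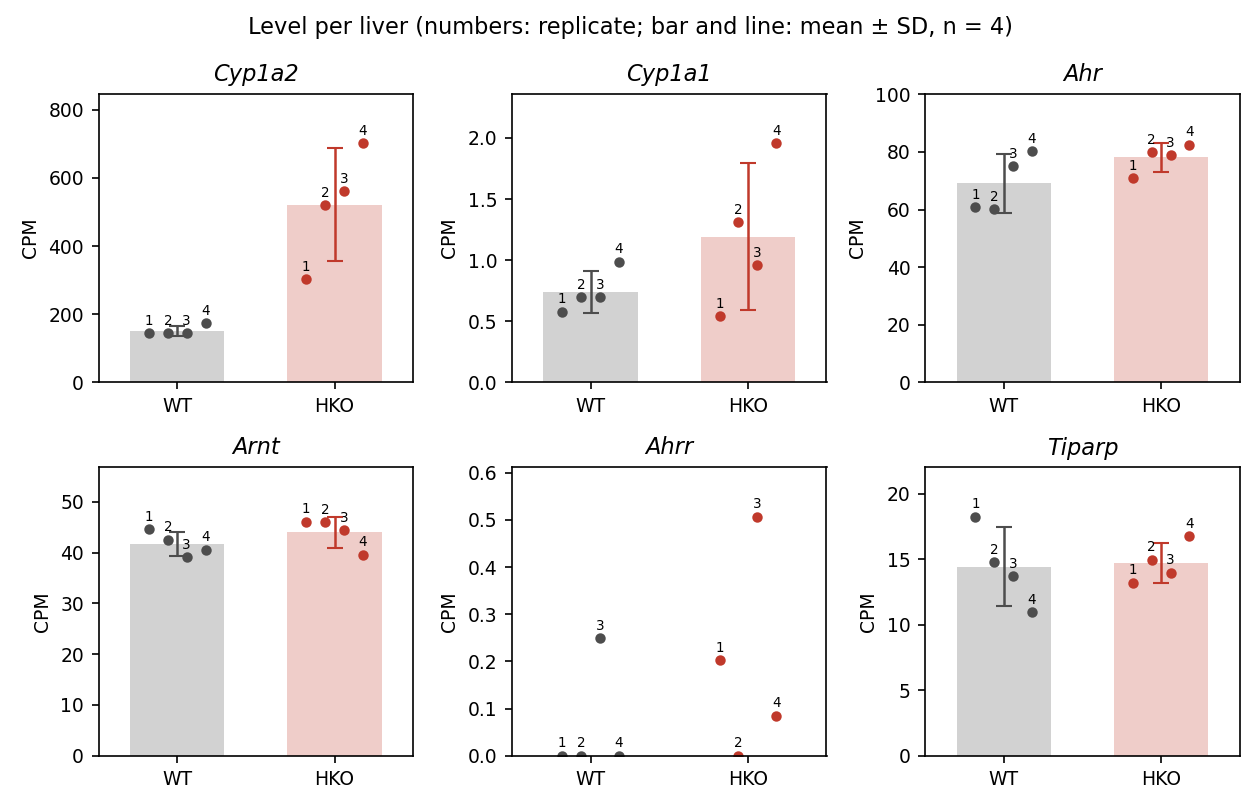
Level of the 6 genes in each liver, in CPM on linear axes that start at 0 and differ between panels. Points are livers numbered by replicate, and bars and lines are the mean ± SD (n = 4), left out for *Ahrr*, which was at 0 in 4 livers. Only in the *Cyp1a2* panel do the 4 HKO points (303 to 702 CPM) all lie above the 4 WT points (143.35 to 173 CPM).

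The balance between both enzymes was tested directly as the ratio of *Cyp1a2* to *Cyp1a1* within each liver. Reads of *Cyp1a2* outnumbered those of *Cyp1a1* by 248, 205, 208 and 176 to 1 in the WT livers and by 561, 395, 586 and 359 to 1 in the HKO livers. Every HKO ratio was above every WT ratio. On the log2 scale, with a prior count of 2, the ratio was 7.45 ± 0.15 in WT and 8.67 ± 0.28 in HKO (SD, n = 4 each), a difference of 1.22 with p = 0.0286 by a two-sided exact permutation test, the smallest p that 4 against 4 livers allow. By this ratio *Cyp1a2* rose by more than *Cyp1a1* in the same libraries. The prior count pulls the low *Cyp1a1* values together, and a prior of 0.5 gave a difference of 1.18. *Cyp1a2* alone gave the same p of 0.0286 by the exact permutation test. *Cyp1a1* rested on only 7 to 23 counts per liver. The ratios of *Cyp1a2* to *Ahr*, *Arnt* and *Tiparp*, added after the data were seen, were higher in HKO by 1.54, 1.65 and 1.68 on the log2 scale, again with no overlap. The exact permutation p was 0.0286 each (also 0.0286 after adjustment over the 4 ratios). *Cyp1a2* alone did not overlap and these 3 genes differed by only 0.18, 0.08 and 0.03. The separation therefore follows from *Cyp1a2* itself, and these p values add no support.

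**Figure D2:**
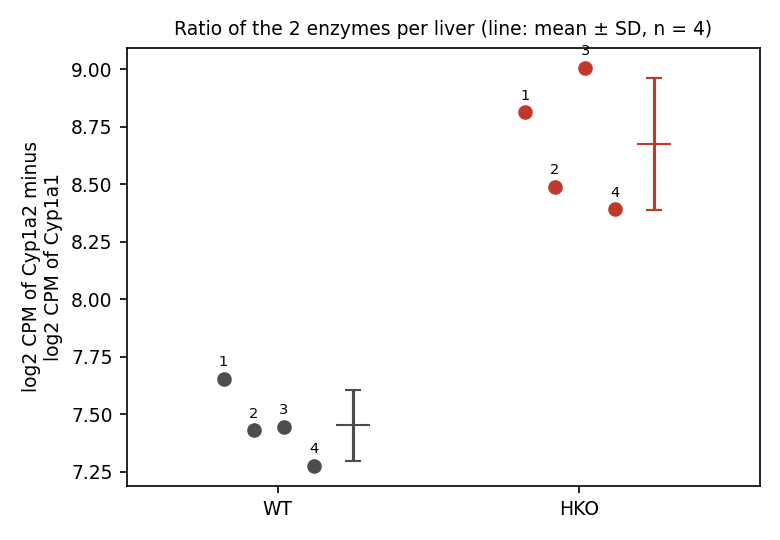
Ratio of *Cyp1a2* to *Cyp1a1* in each liver, as the difference of log2 CPM with a prior count of 2. Points are livers numbered by replicate, lines are the mean ± SD (n = 4), and the axis does not start at 0. All 4 HKO livers (8.39 to 9.01) lie above all 4 WT livers (7.28 to 7.65).

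The receptor and its partner showed no difference that passed the test. *Ahr* (chromosome 12, 35497979 to 35534989, minus strand), the ligand-binding receptor itself, measured 60.8, 60.03, 75.1 and 80.3 CPM in WT livers and 70.9, 79.9, 79.0 and 82.5 CPM in HKO livers. WT replicates 1 and 2 were the lowest, and the other 6 livers ran together between 70.9 and 82.5 CPM. The log2 difference was 0.18 (SE 0.10), with a 95% confidence interval of -0.05 to 0.40 and an adjusted p of 0.39 in edgeR. *Arnt* (chromosome 3, 95434390 to 95497239, plus strand), whose product joins the receptor on DNA and also serves the hypoxia factors, measured 44.6, 42.5, 39.0 and 40.6 CPM in WT livers and 46.1, 46.0, 44.4 and 39.6 CPM in HKO livers. Its values overlapped across nearly their whole range. The log2 difference of 0.08 (SE 0.08) had an interval of -0.10 to 0.26 and an adjusted p of 0.661 in edgeR, and with total count scaling its sign changed, to -0.0048. The upper ends of both intervals lay below 1.27, the lower end of the interval for *Cyp1a2*.

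The same held for the feedback genes. *Tiparp* (chromosome 3, 65528447 to 65555518, plus strand), which encodes an ADP-ribosyltransferase that is induced by the receptor and then limits it, measured 18.3, 14.8, 13.7 and 10.98 CPM in WT livers and 13.2, 14.98, 13.97 and 16.8 CPM in HKO livers. The HKO livers lay inside the WT range. The log2 difference was 0.03 (SE 0.15), with an interval of -0.29 to 0.36 and an adjusted p of 0.944 in edgeR, and its sign changed to -0.058 with total count scaling, to -0.08 without WT replicate 4 and to -0.03 without HKO replicate 4. *Ahrr* (chromosome 13, 74211118 to 74292331, minus strand), the AHR repressor, which competes for ARNT, had 0, 0, 5 and 0 counts in WT livers and 3, 0, 9 and 1 in HKO livers. Only WT replicate 3 and HKO replicate 3 were above 3 counts, so *Ahrr* was not detectable at this depth in the other 6 livers. It did not pass the expression filter, and a fit without the filter, in which 3.48% of 17810 genes were called, gave it an adjusted p of 0.604 in edgeR. *Ahrr* is the gene with the miR-33-5p seed match printed above, and its counts were too few for the genotypes to be compared.

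Per kilobase of exon, the order of mean levels was the same in both genotypes. In WT livers *Cyp1a2* stood at 75.1 CPM per kilobase, *Ahr* at 11.2, *Arnt* at 5.21, *Tiparp* at 3.31, *Cyp1a1* at 0.265 and *Ahrr* at 0.00658 CPM per kilobase. The HKO livers held 259, 12.7, 5.50, 3.38, 0.428 and 0.0210 CPM per kilobase in that order. Within each genotype no neighbours in this order overlapped between livers. The level of *Cyp1a2* therefore moved further from that of the receptor without any change in rank.

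Other genes reported as AHR targets were listed to see whether they moved with *Cyp1a2*. Of 16 such genes, 13 were tested, 0 were called higher and 4 lower in edgeR, where 1.71% and 3.44% of all genes tested were called, with a median log2 fold change of -0.35 against 0.01 for all genes. The numbers at an unadjusted p under 0.05 were 0 higher and 6 lower, and those called by DESeq2 and by limma-voom were both 0 higher and 5 lower. Over all 12395 genes, DESeq2 called 385 higher and 629 lower, and limma-voom 200 and 403. Only 2 of the 13 had a positive log2 fold change, and 5 did not overlap between the genotypes, against 12.5% of all genes. *Gsta1*, a glutathione transferase, fell by 3.85 on the log2 scale (SE 0.61, adjusted p 0.0173 in edgeR), from 11.9 to 24.6 CPM in WT livers to 0.169 to 2.83 CPM in HKO livers, with the limit that near-identical paralogs can share its reads. Without WT replicate 2, HKO replicate 2 or HKO replicate 4 its adjusted p was 0.0576, 0.0517 and 0.0579 in edgeR. *Cd36*, a fatty acid uptake receptor, fell by 2.32 (SE 0.34, adjusted p 0.0142 in edgeR), from 356 to 537 CPM to 39.7 to 116 CPM. *Ugdh*, which makes UDP-glucuronic acid for glucuronidation, fell by 0.95 (SE 0.11, adjusted p 0.000705 in edgeR). *Nfe2l2*, which encodes the antioxidant factor NRF2, fell by 0.34 (SE 0.08, adjusted p 0.0321 in edgeR), a call that among the fits without a liver was made only without WT replicate 4. As background, *Gsta1* is also a target of NRF2 and *Cd36* of PPARγ.

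Some other targets often read as signs of the receptor, named after their values were seen, did not pass the test. *Nqo1*, a quinone reductase shared with NRF2, stood at 12.8 ± 2.25 CPM in WT and 5.80 ± 2.66 CPM in HKO (SD, n = 4 each) with no overlap, a log2 difference of -1.14 (SE 0.32) with an adjusted p of 0.0805 in edgeR. *Cyp1b1*, the third CYP1 enzyme, stood at 1.47 ± 0.433 and 0.823 ± 0.535 CPM, with an adjusted p of 0.385 in edgeR. *Cyp2a5*, the highest target that was not called, had 533 CPM in WT and 760 CPM in HKO, with a log2 difference of 0.51 (SE 0.25) and an adjusted p of 0.317 in edgeR. *Aldh3a1* was not analysed here, and *Serpinb2* was at or under 3 counts.

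**Figure D3:**
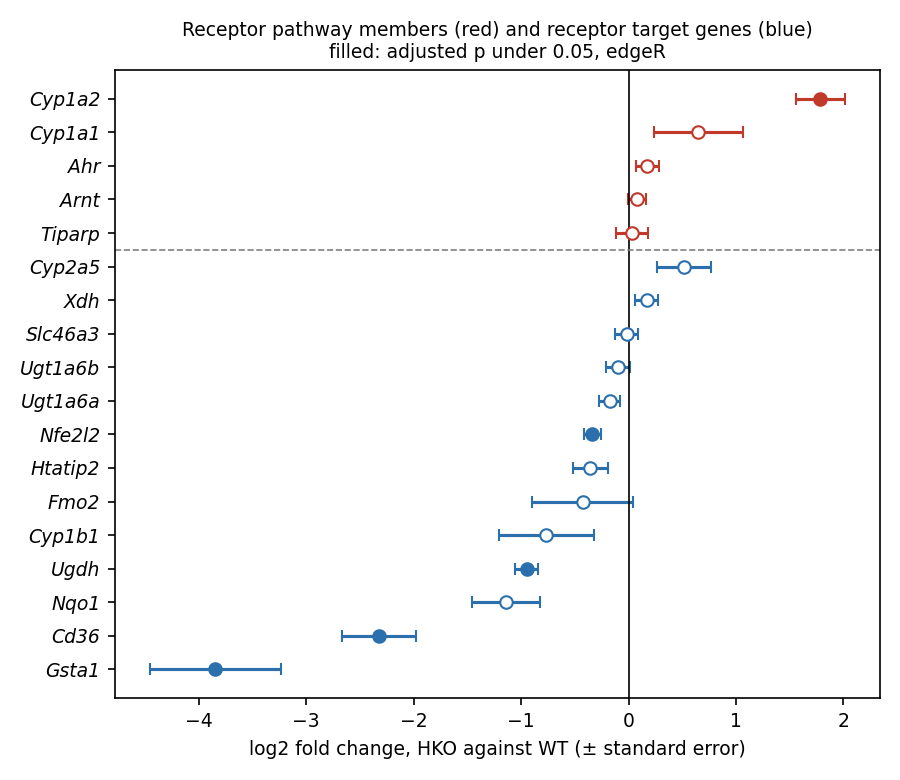
Log2 fold change, HKO over WT, of the 5 tested pathway genes (red) and the 13 tested AHR target genes (blue), from the edgeR fit. Points are genes, lines are ± 1 standard error, and filled points passed an adjusted p under 0.05. *Cyp1a2* (1.79) lies farthest to the right, and the 4 called targets lie to the left of 0, from -3.85 to -0.34.

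Genes acting on the receptor itself were counted next. Among 10 tested partners of the complex, 0 were called higher and 0 lower in edgeR, DESeq2 or limma-voom, with 0 higher and 1 lower at an unadjusted p under 0.05. The median log2 fold change was 0.03, or -0.06 with total count scaling. *Hsp90ab1*, the chaperone that holds the receptor in the cytoplasm and the highest partner not called, differed by 0.06 (adjusted p 0.814 in edgeR), or by -0.029 with total count scaling. Of 11 tested bHLH-PAS genes, whose median was 0.08 (-0.02 with total count scaling), 0 were called in either direction by edgeR or the other tools, 0 higher and 1 lower at an unadjusted p under 0.05, and the highest, *Epas1* (HIF-2α), differed by 0.17 (adjusted p 0.488 in edgeR). Both lists hold *Hif1a*, *Epas1*, *Ncoa1*, *Ncoa2* and *Ncoa3*, so their counts are not separate results.

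Enzymes of tryptophan breakdown, a source of AHR ligands such as kynurenine, were examined in the same way. Of 9 tested, 2 were called higher and 0 lower in edgeR (1.71% and 3.44% of all genes), the median was 0.23 against 0.01 for all genes, and all 9 fold changes were positive, or 8 with total count scaling. DESeq2 called 3 and limma-voom 2, all higher, where they called 385 and 200 of all 12395 genes higher. At an unadjusted p under 0.05 there were 5 higher and 0 lower, numbers that cannot be set against the shares at an adjusted p. *Kynu*, kynureninase, rose from 230 ± 23.3 to 324 ± 29.996 CPM (log2 fold change 0.49, SE 0.10, adjusted p 0.015 in edgeR). *Kyat1*, a kynurenine aminotransferase, rose from 28.5 ± 1.16 to 37.3 ± 2.75 CPM (0.39, SE 0.08, adjusted p 0.0207). The first enzyme of the pathway and its most abundant transcript, *Tdo2*, differed by 0.10 (SE 0.11, adjusted p 0.703), and *Ido1* was at or under 3 counts in every liver. Both called enzymes take kynurenine as a substrate, but these are RNA levels, and the supply of AHR ligands was not tested. The call of *Kynu* was lost without WT replicate 1 or 2, and that of *Kyat1* without either of these or HKO replicate 4 and with total count scaling (adjusted p 0.0719 in edgeR).

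Regulators that act on *Cyp1a2* in hepatocytes without the AHR were also counted. Of 9 tested, 1 was called higher and 0 lower in edgeR (1.71% and 3.44% of all genes), with 3 higher and 1 lower at an unadjusted p under 0.05 and 1 and 0 in DESeq2 and limma-voom, and a median of 0.09. *Hnf4a*, the hepatocyte master factor, rose from 446 ± 16.8 to 572 ± 56.7 CPM (log2 fold change 0.36, SE 0.09, adjusted p 0.0442 in edgeR), a call lost with total count scaling (adjusted p 0.159 in edgeR) and without any one liver other than HKO replicate 3. *Rxra*, the partner of many nuclear receptors, differed by 0.21 (adjusted p 0.207 in edgeR). Of the 5 genes that supply electrons to P450 enzymes and the 12 of heme synthesis and breakdown, 0 were called in edgeR, DESeq2 or limma-voom. Their unadjusted p was under 0.05 for 0 higher and 2 lower, and for 1 higher and 3 lower, and their medians were -0.19 and -0.17. The highest genes of these lists were *Pgrmc1* (-0.26, adjusted p 0.248 in edgeR) and *Cpox* (-0.21, adjusted p 0.205 in edgeR).

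The genes whose profile over the 8 livers was most like that of *Cyp1a2* were named by the root mean square difference of centred log2 CPM. They were *Ang* (0.20), *Rnase4* (0.32), *Avpr1a* (0.34), *Susd4* (0.37) and *Cnmd* (0.38), whereas the median gene stood at 0.94. The other AHR pathway genes stood at 0.64 for *Cyp1a1*, 0.82 for *Ahr* and 0.91 for both *Arnt* and *Tiparp*. *Ang* and *Rnase4* encode secreted ribonucleases, and their listed coordinates overlap on chromosome 14, so that reads can be split between them and they are not separate evidence. *Ang* ran from 70.9 to 109 CPM in WT livers and from 171 to 285 CPM in HKO livers, with an adjusted p of 0.0021 in edgeR for its log2 fold change of 1.47. *Avpr1a*, the hepatic vasopressin receptor, had 9.76, 6.21, 6.56 and 10.2 CPM in WT livers and 24.8, 22.2, 22.4 and 38.5 CPM in HKO livers (1.72, adjusted p 0.00362 in edgeR). *Susd4* (1.42) had an adjusted p of 0.0653 in edgeR, and was called by DESeq2, by limma-voom (adjusted p 0.0455), with total count scaling, under the replicate block and without HKO replicate 1. *Cnmd* (1.27) had an adjusted p of 0.0471 in edgeR and was called in 1 of 8 fits without a liver. The likeness follows in part from the difference between the genotypes and says nothing of shared control.

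**Figure D4:**
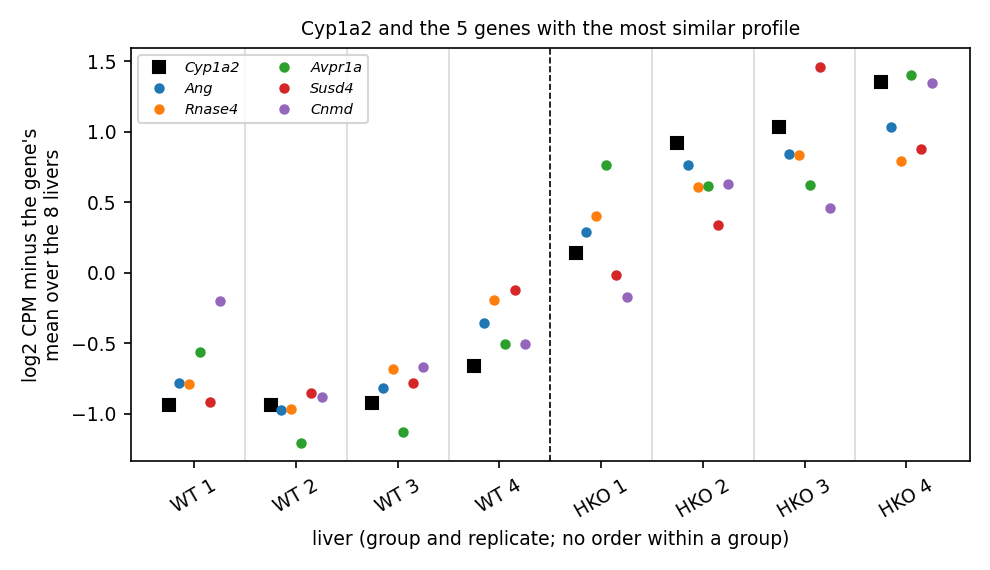
Log2 CPM of *Cyp1a2* (black squares) and of the 5 genes with the most similar profile in each liver, minus the mean of each gene over the 8 livers. The dashed line parts the WT from the HKO livers. *Ang* follows *Cyp1a2* most closely, with a root mean square difference of 0.20.

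The genes flanking both P450 genes showed no difference that passed the test. *Csk*, a kinase gene on the *Cyp1a2* side, measured 43.3 ± 2.35 CPM in WT and 44.7 ± 1.90 CPM in HKO (SD, n = 4 each), with a log2 difference of 0.05 (adjusted p 0.81 in edgeR). *Edc3*, an mRNA decapping gene on the *Cyp1a1* side, measured 10.8 ± 0.751 and 11.4 ± 1.17 CPM, with a log2 difference of 0.08 (adjusted p 0.769 in edgeR).

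Since CYP1A2 is made by hepatocytes around the central vein, markers of liver zones and cell types were summed beside it. The sum of 10 pericentral markers was 12940 to 14705 CPM in WT livers and 16189 to 18087 CPM in HKO livers, with no overlap. Most of this sum was *Cyp2e1* (named after its values were seen), at 10131 and 12801 CPM with an adjusted p of 0.0678 in edgeR. Of the 10, 1 was called, *Gulo*, higher by 0.67 (adjusted p 0.00231 in edgeR), where 1.71% of all genes tested were called higher. The median log2 difference of the 10 was 0.33 and 8 were positive (6 with total count scaling). DESeq2 called 3 of them higher, where it called 385 of all 12395 genes higher. Those not called by edgeR ranged from -0.29 (*Rhbg*) to 0.59 (*Slc1a2*). The sum of 10 periportal markers was also higher without overlap, at 6682 to 8499 CPM in WT and 10327 to 13522 CPM in HKO. A large part of it was *Cps1*, with means of 2435 CPM in WT and 5820 CPM in HKO. Of the 10, *Cps1* (1.26) and *Ass1* (0.80) were called higher and *Hsd17b13* (-0.77) lower by edgeR, where 1.71% and 3.44% of all genes tested were called. The call of *Ass1* was made in 2 of 8 fits without a liver. The sums of both zones were thus higher beside *Cyp1a2*, although *Cyp2e1* and *Cps1* weighed heavily in them. The part of zone markers in the rise of *Cyp1a2* was not tested.

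Among 6 tested hepatocyte markers, 2, *Serpina1a* (0.61) and *Fgb* (0.61), were called higher and 0 lower by edgeR, where 1.71% and 3.44% of all genes tested were called. These calls were made in 5 and 3 of 8 fits without a liver. The summed hepatocyte markers overlapped, at 87932 to 123104 CPM in WT and 78967 to 129995 CPM in HKO, so the labelled tissue carried its defining markers in every library. Most of this sum was *Alb* (named after its values were seen), with means of 74932.2 CPM in WT and 73522.5 CPM in HKO. Sums of markers of the other liver cells overlapped as well. Cholangiocyte markers summed to 40.6 to 51.0 CPM and 31.0 to 111 CPM. The 111 CPM was in HKO replicate 2, and the other HKO livers had 31.0 to 53.3 CPM. Stellate cell markers summed to 324 to 436 CPM and 280 to 396 CPM, and macrophage markers to 58.2 to 154 CPM and 44.2 to 144 CPM. Sinusoidal endothelial markers summed to 59.2 to 192 CPM and 98.2 to 222 CPM, lymphocyte markers to 11.1 to 17.4 CPM and 15.6 to 24.3 CPM, and erythroid markers to 61.9 to 263 CPM and 66.0 to 105 CPM. Of these other cell types' markers, *Col1a1*, a stellate collagen, was the one called by edgeR, lower by 2.81 on the log2 scale. It was 1 of 7 tested stellate cell markers, whose median log2 fold change was -0.07, and 3 of the 7 were positive. Of all genes tested, 3.44% were called lower. DESeq2 also called 1 lymphocyte marker higher, *Cd4* (named after its values were seen), at 0.525 ± 0.440 CPM in WT and 1.92 ± 0.954 CPM in HKO (SD, n = 4 each), with an adjusted p of 0.0821 in edgeR.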

How the data were processed

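RNA-Seq libraries from 4 WT and 4 HKO livers were analysed, grouped by the genotype in the labels. The authors deposited estimated counts per gene, made with Partek's expectation-maximization method, which splits reads that match several genes, and not normalized. The submitters' processing notes name STAR and Partek, without versions. The genome build was not given in the sources used here, and the listed coordinates were matched to GRCm38. The labels name both rRNA depletion and a small RNA kit, so the type of library is uncertain, and strand use in the counting was not stated. No authors' comparison was used.

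Counts were rounded, scaled by TMM and analysed by the robust quasi-likelihood test of edgeR 4.0.16 (R 4.3.3), after filterByExpr with a minimum count of 10. Benjamini-Hochberg adjustment covered all 12395 genes tested, with a threshold of 0.05. The totals were 12174339 to 18735785 counts per liver over all genes listed. CPM values use the totals over the genes that passed the filter, multiplied by the TMM factors. A gene at 3 counts or fewer in a library was read as not detected there, and log2 CPM used a prior count of 2. For ratios, all 70 allocations of the livers were enumerated in an exact permutation test (two-sided). As alternatives, RLE and total count scaling, DESeq2 1.42.0, limma-voom (limma 3.58.1), no filter, the replicate number as a block, a prior count of 0.5 and fits without each liver were run. Python 3.11.15, numpy 2.4.6, pandas 2.3.3, scipy 1.17.1 and matplotlib 3.10.9 were used, and the models were tested on simulated data.

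Promoters and the mature microRNA were taken from RefSeq (GRCm38.p6), and 3′UTRs from GENCODE annotation. The genes named were the 6 pathway genes, every called gene and the highest gene not called in 7 pathway lists, called genes in 9 marker lists, the 5 genes most like *Cyp1a2* and its chromosomal neighbours. One gene of these lists is not reported here, and counts over the lists leave it out. Members and lists were chosen with earlier results of these data known.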

Additional observations from a re-analysis of the deposited data

Results flagged for a closer look

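In 7 of 100 groups of 4 livers, 1 liver lay far from the other 3 by Dixon's test, and chance gives about 5. *Cyp1a2* was 173 CPM in WT replicate 4 and 143.35 to 145 CPM in the other WT livers, a gap that is small beside the HKO range of 303 to 702 CPM. *Ahrr* was 0.249 CPM (5 counts) in WT replicate 3 and 0 in the other WT livers. *Hnf4a* was higher in WT replicate 3 (471 CPM) than in the other WT livers (435 to 441 CPM). *Avpr1a* reached 38.5 CPM in HKO replicate 4 against 22.2 to 24.8 CPM in the other HKO livers, and *Susd4* reached 12.03 CPM in WT replicate 4, where the rest of the WT livers had 6.86 to 7.56 CPM. The summed genes of heme synthesis and breakdown stood at 1206 CPM in WT replicate 2 and at 908 to 941 CPM in the other WT livers. The summed macrophage markers stood at 44.2 CPM in HKO replicate 2 and at 127 to 144 CPM in the other HKO livers. In that liver *Cyp1a2* measured 519 CPM, inside the range of the other HKO livers.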

How the results depend on the processing

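*Cyp1a2* kept its direction and its call in all 14 alternatives, with log2 fold changes of 1.61 to 1.98, and *Cyp1a1* and *Ahr* stayed positive and uncalled in all 14, *Cyp1a1* at 0.32 to 0.89. The ratio of *Cyp1a2* to *Cyp1a1* differed by 1.11 to 1.32 when a liver was left out, with no test at that size. Over all genes, DESeq2 called 1014, and leaving out a liver gave 222 to 599, with 293 without WT replicate 1, 222 without WT replicate 2 and 369 without HKO replicate 4. In the 7 pathway lists 7 genes were called, 5 with total count scaling and 2 to 8 with a liver left out, with 3, 2 and 3 without WT replicates 1 and 2 and HKO replicate 4. *Arnt* turned to -0.0048 and *Tiparp* to -0.058 with total count scaling, *Tiparp* ranged from -0.080 to 0.16 over fits without a liver, and *Hsp90ab1* turned to -0.029 with total count scaling and ranged from -0.00043 (without HKO replicate 1) to 0.11 over fits without a liver. The cause of these shifts was not tested. *Ahrr* gave a value only without the expression filter. Replicate numbers did not pair the livers: deviations of same-numbered livers correlated at -0.15 to 0.01, and 0 of 8 livers correlated best with its own number. With the replicate block 470 genes were called and *Cyp1a2* differed by 1.73, while *Nfe2l2* (adjusted p 0.0773 in edgeR), *Hnf4a* (0.107), *Fgb* (0.0512) and *Cnmd* (0.106) were not called and *Susd4* (0.0312) was. At 7 to 23 counts per liver, depth limits what can be said of *Cyp1a1*.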
